A study of Mus musculus with 4 samples.

Results

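The mitochondrial genome was represented by 30 of the 26354 gene windows in the deposited promoter table, chosen by a gene symbol that begins with mt-. The other 26324 windows lie on nuclear chromosomes or carry symbols that could not be placed, and they are called nuclear here. GENCODE lists 37 genes on the mouse mitochondrial genome. The 30 in the table are 2 rRNA genes, 19 tRNA genes, 6 complex I genes, the complex III gene mt-Cytb, and mt-Co1 and mt-Co2 of complex IV. The 7 without a window are mt-Tk, mt-Atp8, mt-Atp6, mt-Co3, mt-Tg, mt-Nd3 and mt-Tr, which stand next to each other between mt-Co2 and mt-Nd4l. Complex V is therefore without a window.

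The 4 libraries came from aortic tissue of male C57Bl/6J mice, taken ex vivo without culture, from which fat, adventitia and endothelium had been removed so that the smooth muscle of the medial layer remained. There were 2 experiments, v102 and v134. Each had 1 library from chromatin immunoprecipitated with an antibody to dimethylated lysine 9 of histone H3 (H3K9me2, a mark of repressed chromatin) and 1 input library from the same kind of fixed, fragmented chromatin without immunoprecipitation. No treatment, transgene or other genotype was involved, and the age of the mice and the number of mice per library are not given in the sources used here. No expression was measured, so the tissue label could not be checked against marker genes. If the libraries of a group do not come from separate animals, p-values measure only technical spread. Reads were counted within 1 kb on either side of each start site. Over all windows the ChIP libraries held 162233 (v102) and 229605 (v134) reads and the inputs 619100 and 1084349, which are sums over the table and not the number of reads sequenced.

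Mitochondrial DNA is a small circular molecule present in many copies per cell. It is packaged by the protein TFAM and not by histones, so it has no nucleosomes and no histone H3 that could carry the mark. It encodes the RNAs of the mitochondrial ribosome, a set of tRNAs and core subunits of the respiratory chain. Reads on it in a histone ChIP library are for this reason often used to gauge how much unbound DNA is carried through the procedure. Long stretches of mitochondrial DNA have also been copied into nuclear chromosomes during evolution, and a read that matches both places cannot be assigned to either.

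Because of such copies, the sequences at 3 mitochondrial gene starts are shown with their nearest nuclear copy. Each is a stretch of 75 bases, the read length, that begins with the start codon, in the GRCm38 reference of RefSeq and on the strand of the gene. Capitals mark the bases at which the nuclear copy differs from the mitochondrial genome. The mt-Co2 stretch lies at chrM:7013-7087 on the plus strand, and its copies are at chr1:24615491-24615565 and chr2:22587888-22587962, both on the minus strand. The mt-Co1 stretch at chrM:5328-5402 (plus strand) has a copy at chr2:22589573-22589647 (minus strand), and the mt-Cytb stretch at chrM:14145-14219 (plus strand) has a copy at chr4:80003989-80004063 (plus strand). All 3 stretches are protein-coding.
mt-Co2: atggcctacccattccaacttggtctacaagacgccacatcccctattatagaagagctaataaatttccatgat
mt-Co2 copy on chromosome 1: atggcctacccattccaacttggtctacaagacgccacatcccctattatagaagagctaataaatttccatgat
mt-Co2 copy on chromosome 2: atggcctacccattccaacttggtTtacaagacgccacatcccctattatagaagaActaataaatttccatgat
mt-Co1: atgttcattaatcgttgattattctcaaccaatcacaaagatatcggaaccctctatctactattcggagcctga
mt-Co1 copy on chromosome 2: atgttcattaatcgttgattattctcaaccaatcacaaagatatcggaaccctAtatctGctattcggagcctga
mt-Cytb: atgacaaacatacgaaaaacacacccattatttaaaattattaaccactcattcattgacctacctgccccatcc
mt-Cytb copy on chromosome 4: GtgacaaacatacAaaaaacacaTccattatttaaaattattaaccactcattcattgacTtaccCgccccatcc
The mt-Co2 start is identical on chromosome 1, the mt-Co1 start differs from its copy at 2 bases and the mt-Cytb start at 5 bases.

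The windows are not independent measurements. The mitochondrial genome of 16299 bases is densely packed with genes, and the 30 windows cover 92.7% of it with a median of 3 windows, and up to 10, over a covered base. The windows of mt-Ty and mt-Co1, whose starts are 2 bases apart on opposite strands, held 759 and 758 input reads in v102 and 689 each in v134. Those of mt-Te and mt-Cytb, 6 bases apart, held 3519 and 3528 in v102. Neighbouring windows thus repeat the same reads. For sums, a set of 6 windows that do not overlap was also used (mt-Rnr1, mt-Tl1, mt-Tw, mt-Co2, mt-Nd4l and mt-Nd6, 11075 bases), which was chosen by position.

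Mitochondrial windows took up a large share of the input reads and a very small share of the ChIP reads in both experiments. Summed over all 30, they held 88469 (v102) and 81630 (v134) input reads, or 14.3% and 7.53% of the reads in the table. In the ChIP libraries they held 325 and 401 reads, or 0.200% and 0.175%. Both ChIP shares were below both input shares. Within experiments the ChIP share was 71.3 times lower than the input share in v102 and 43.1 times lower in v134, a mean log2 ratio of -5.79 ± 0.51 (SD, n = 2). In an exact two-sided permutation test over the 4 libraries p was 0.33, the smallest that 2 against 2 allows.

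The 6 windows without overlap gave the same order. They held 32 and 51 ChIP reads, 0.0198% (95% Wilson interval 0.0140 to 0.0279) in v102 and 0.0222% (0.0169 to 0.0292) in v134 of the reads in nuclear windows and these windows together. Their input shares were 2.47% (2.43 to 2.51) and 1.2% (1.18 to 1.22). The intervals of the ChIP libraries overlapped each other, while those of the inputs did not. All intervals cover counting error only and hold no spread between libraries. The reads carry no molecular identifiers, so duplicates among them may make the intervals too narrow.

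**Figure D1:**
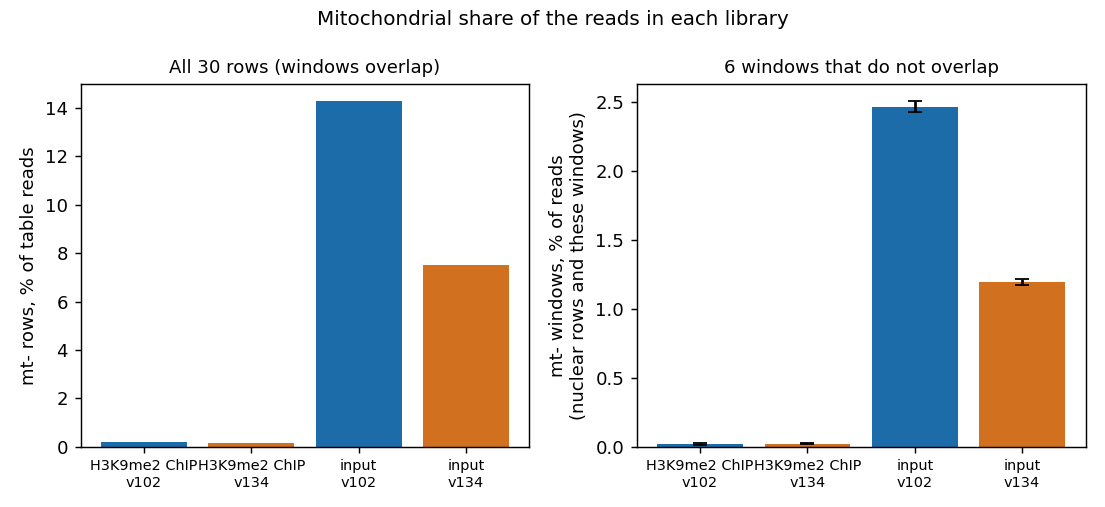
Share of reads on mitochondrial windows in each library, as a percent, for all 30 windows (left, of all reads in the table) and for 6 windows that do not overlap (right, bars with 95% Wilson intervals). The inputs stand at 14.3% and 7.53% on the left, and the ChIP bars, at 0.200% and 0.175%, are barely visible.

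The inputs of the 2 experiments differed in how much mitochondrial DNA they held relative to nuclear DNA. The mitochondrial share of input was 1.9 times higher in v102 than in v134. Across the 26 mitochondrial windows with at least 1000 summed input reads, the v102 input had 1.03 to 1.17 times the reads of the v134 input, whereas over nuclear windows it had 0.529 times as many. The 2 inputs therefore had similar mitochondrial read numbers at unequal nuclear read numbers. What in the tissue or the procedure set this was not tested.

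In the inputs, the median mitochondrial window held 3523.5 reads in v102 and 3248.5 in v134, compared with 20 and 37 at the median nuclear window, which is 176 and 87.8 times as many. In the ChIP libraries the median mitochondrial window held 9 and 15.5 reads, and the median nuclear window 4 and 5. Copy number was not measured, and what set the mitochondrial input level was not tested. Input reads also differed between nuclear chromosomes. Windows on the X chromosome, of which male cells hold a single copy, had median input reads of 10 and 20, or 0.50 and 0.541 times the autosomal median. Of the mitochondrial windows, 22 in v102 and 17 in v134 had more input reads than every nuclear window, the highest of which was Gm10800 with 1098 and 3122. No mitochondrial window exceeded every nuclear window in a ChIP library.

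In the quasi-likelihood test of edgeR, with p-values adjusted over all 26354 windows by the Benjamini-Hochberg method, all 30 mitochondrial windows had fewer ChIP reads than input reads relative to the typical window, and 0 had more, also at an unadjusted p under 0.05. Over all windows 17.0% were called below input and 18.6% above it. The number called below over all windows, 4484, fell to 495 without the v102 input and 515 without the v134 input, whereas 28 and 30 of the mitochondrial windows were still called. The log2 fold change of ChIP over input had a median of -6.24 over the mitochondrial windows, compared with -0.35 over all windows. Neighbouring windows share reads, so 30 calls are not 30 separate results. By share of reads, all 30 were lower in both ChIP libraries than in both inputs, which held for 46.1% of all windows. Adjusted p was 1.81e-05 or lower at every mitochondrial window but mt-Nd4l, where it was 0.0474. This fit does not use the pairing of each ChIP library with its input. With the experiment as a block in edgeR, adjusted p was larger, 0.00146 or lower at every window but mt-Nd4l, where it was 0.104.

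For a ranking, 1 read was added to every count, the log2 ratio of ChIP to input share was taken in either experiment, and both values were averaged. Of the 30 mitochondrial windows, 28 lay below every nuclear window, the lowest of which was at -3.38. The exceptions were mt-Co2 at -3.24 and mt-Nd4l at -1.21, both of which had few input reads. The median percentile of the mitochondrial windows among all windows was 0.0569 in the mean and in each experiment. That is the lowest value a median over 30 of these windows can take. This ranking depends on input depth, since with 1 read added a window with few input reads cannot reach a low ratio even with 0 ChIP reads. By the ratio of summed reads, where the 520 nuclear windows with 0 ChIP reads rank lowest, the median percentile was 2.03.

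**Figure D2:**
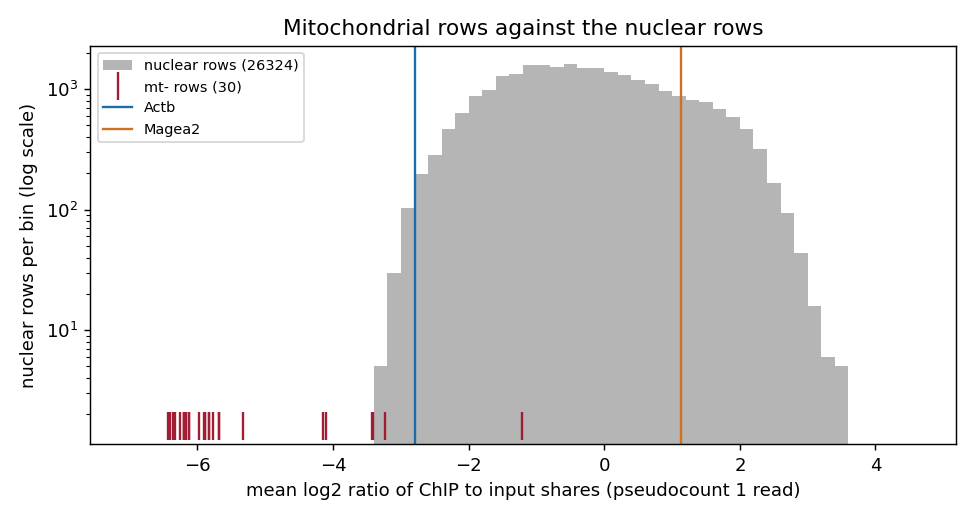
Mean log2 ratio of ChIP to input share (x axis, pseudocount of 1 read) for the 26324 nuclear windows (grey histogram, log count axis) and the 30 mitochondrial windows (red ticks, whose height has no meaning), with Actb and Magea2 as vertical lines. Of the red ticks, 28 lie left of the lowest nuclear window, at -3.38, and mt-Nd4l lies among the nuclear windows at -1.21. How far left a window can lie depends on its input reads.

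The rRNA genes were among the windows with the lowest mean log2 ratio. At mt-Rnr1, which encodes the small-subunit rRNA (chrM:70-1024, plus strand, ENSMUSG00000064337.1), there were 7 and 8 ChIP reads in v102 and v134 against 2736 and 2507 input reads. At mt-Rnr2, the large-subunit rRNA gene (chrM:1094-2675, plus strand, ENSMUSG00000064339.1), there were 9 and 14 ChIP reads against 4711 and 4273 input reads. Both were far below input in each experiment. With the pseudocount of 1 read, mt-Rnr2 had the lowest mean log2 ratio in the table, -6.43 ± 0.73 (SD, n = 2). Without it, the 523 windows with 0 ChIP reads in both experiments had lower ratios. The edgeR log2 fold change was -6.50 at mt-Rnr2 (standard error 0.89, adjusted p = 3.65e-11) and -6.32 at mt-Rnr1 (standard error 0.78, adjusted p = 3.15e-13). The mt-Rnr1 window is cut off at the end of the linear reference and is 1070 instead of 2001 bases long.

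Among tRNA genes, mt-Tv (valine), between the rRNA genes, had 9 and 14 ChIP reads against 4575 and 4211 input reads, and its log2 ratio of -6.40 ± 0.72 (SD, n = 2) was next to that of mt-Rnr2. mt-Ti (isoleucine) had 12 and 18 ChIP reads against 5335 and 4877 input reads. mt-Tl1 (leucine) had 11 and 17 against 5325 and 4703. The mt-Nd1 window, of 2001 bases, shares 1926 bases with that of mt-Tl1 and 1046 with that of mt-Ti. With 10313, 10212 and 10028 reads, mt-Nd1, mt-Ti and mt-Tl1 had the most summed input reads in the table's mitochondrial set. The 19 tRNA windows ranged from 0 to 69 ChIP reads in v102 and from 0 to 32 in v134.

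Of the complex I genes, which encode core subunits of NADH dehydrogenase, mt-Nd1 (chrM:2751-3707, plus strand, ENSMUSG00000064341.1) had 11 and 17 ChIP reads against 5467 and 4846 input reads. Its log2 fold change was -6.43 (standard error 0.91, adjusted p = 1.96e-10). mt-Cytb (chrM:14145-15288, plus strand, ENSMUSG00000064370.1), the mitochondrially encoded subunit of complex III, had 10 and 21 ChIP reads against 3528 and 3269 input reads, a log2 fold change of -5.69 (standard error 0.79, adjusted p = 7.49e-11). mt-Co1 (chrM:5328-6872, plus strand, ENSMUSG00000064351.1), which encodes the catalytic subunit of cytochrome c oxidase, had 1 and 2 ChIP reads against 758 and 689 input reads. Its log2 fold change was -6.77 (standard error 0.68, adjusted p = 2.20e-19). The 3 respiratory complexes with windows thus each had a member with ChIP reads far below input.

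At 3 neighbouring windows no ChIP read was counted in either experiment. mt-Ts1 (serine tRNA) had 50 and 40 input reads, and mt-Td (aspartate tRNA) 50 and 39. mt-Co2, which encodes a copper-binding subunit of cytochrome c oxidase (chrM:7013-7696, plus strand, ENSMUSG00000064354.1), had 46 and 33. With a floor of 3 counts over both ChIP libraries, ChIP was at least 6.90 times lower than input at mt-Ts1, 6.82 times at mt-Td and 6.06 times at mt-Co2, after scaling to the reads in the table. These bounds are limited by the input and do not place the 3 windows below or above the other mitochondrial windows. The largest fitted fold changes, to -7.85 at mt-Ts1, belong to these windows and depend on how counts of 0 are handled. Without the v102 input, mt-Co2 was no longer called by edgeR, at a fitted log2 fold change of -6.87 compared with -7.67 (adjusted p = 0.0544).

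mt-Nd4l, a small complex I gene (chrM:9877-10173, plus strand, ENSMUSG00000065947.3), was the least separated. It had 1 ChIP read in each experiment against 34 input reads in v102 and 10 in v134. The v134 value rested on so few reads that its log2 ratio there, -0.22, lay at percentile 54.3, compared with -2.20 and percentile 6.73 in v102. Its fold change was -2.23 (standard error 0.93, adjusted p = 0.0474 by edgeR). The call was lost with the experiment as a block (adjusted p = 0.104) and without the v102 input, where the log2 fold change was -0.64 (adjusted p = 0.890).

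The input level itself varied along the genome, from 34 to 5467 reads per window in v102 and from 10 to 4877 in v134, in a pattern shared by both inputs. In v102 it fell from 4733 reads at mt-Nd2 to 1906 at mt-Tw, 998 at mt-Tc, 758 at mt-Co1 and 50 at mt-Ts1, and rose from 34 at mt-Nd4l to 780 at mt-Nd4 and 4147 at mt-Th. The 7 genes without a window lie in the interval between. All windows in the table have more than 20 summed input reads. The study left out genes with under 20 input reads, so the nuclear windows here are also those that passed an input filter. Whether the 7 genes fell under this cutoff cannot be read from the data, since their counts are not given.

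The longest nuclear copies found overlap this stretch. A search of the reference found a copy of mitochondrial bases 6390 to 11042 at chr1:24611535-24616188 (minus strand) with 2 mismatches and 99.9% identity. A copy of bases 4441 to 7699 at chr2:22587288-22590534 (minus strand) had 97.4% identity, and a copy of bases 12488 to 15356 at chr4:80002330-80005200 (plus strand) had 93.0%. A shorter copy of bases 12446 to 13400 at chr13:85126562-85127515 (minus strand) had 95.2%. It overlaps the windows of mt-Nd5 and mt-Nd6, which held 4434 and 3389 input reads in v102. The chromosome 1 copy spans 7 annotated pseudogenes, Gm28439, Gm10222, Gm28438, Gm28437, Gm10925, Gm28661 and Gm29216, and none of them has a window in the table.

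For each window, the share of its stretches of 75 bases that occur in the nuclear genome with 5 or fewer mismatches was computed, a measure chosen after the counts were seen. Input reads fell as this share rose. The 14 windows with a share up to 30% held 2512 to 5467 input reads in v102 and 2372 to 4877 in v134. The 5 windows between 42.5% and 60.3% held 3389 to 3801 in v102. The 3 between 69.4% and 80.3% held 1292 to 1906, the 4 between 85.4% and 89.7% held 758 to 998, and the 4 from 96.2% upward held 34 to 50. All 7 genes without a window fell in the last class.

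Over the 30 windows, input reads per 1000 bases of window and this share had a Spearman rho of -0.981 in v102 and -0.977 in v134, a description over windows that share reads. By exact matches alone, mt-Co1 stood at 21.3% and mt-Nd4 at 85.8%, although their input reads were alike. How the authors treated reads that match several places is not given in the sources used here, and its part in the input pattern was not tested.

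**Figure D3:**
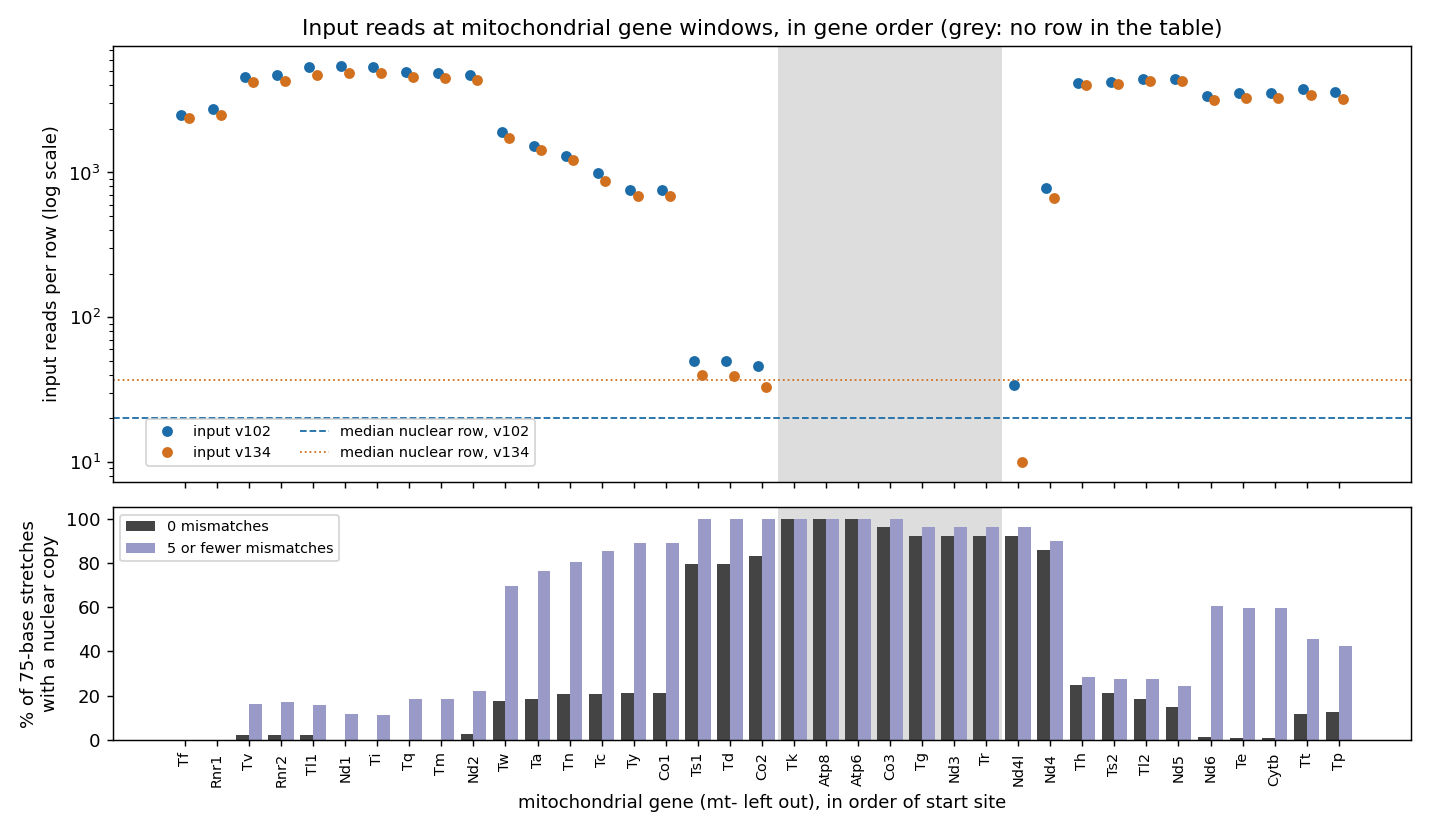
Top, input reads (log axis) at each mitochondrial window in gene order in v102 (blue) and v134 (orange), with the median nuclear window of each input as a line. Grey marks the 7 genes without a window. Bottom, percent of the 75-base stretches of each window that occur in the nuclear genome with 0 (dark) or 5 or fewer (light) mismatches. Input reads are lowest, 34 to 50 in v102, where the light bars reach 96.2% or more.

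The ratio of ChIP to input reads takes out differences in input level between windows of 1 experiment. It was not scaled for library size, so it is compared within an experiment. Ratios of reads summed over both experiments, given where stated, weight the experiments by their input reads. From mt-Tf to mt-Co1, 16 windows had 1.32 to 3.10 ChIP reads per 1000 input reads in v102 and 2.29 to 3.97 in v134. This held although their input reads ranged from 758 to 5467 in v102. From mt-Nd4 to mt-Cytb, 8 windows had 2.26 to 2.84 in v102 and 6.02 to 7.52 in v134. The second arc was thus at the level of the first in v102 and above it in v134. At mt-Nd1 in v134 the ratio was 3.51 (Wilson interval 2.19 to 5.62) and at mt-Nd5, another complex I gene, 6.04 (4.12 to 8.86), so the intervals overlap. The difference between experiments in this respect was not tested.

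The windows of mt-Tt and mt-Tp, the threonine and proline tRNA genes, stood out within the mitochondrial set and were singled out after their values were seen. mt-Tt had 69 ChIP reads in v102 and 32 in v134 against 3801 and 3427 input reads. mt-Tp had 69 and 30 against 3599 and 3236. Per 1000 input reads this is 18.2 (14.3 to 23.0) and 9.34 (6.60 to 13.2) at mt-Tt, and 19.2 (15.1 to 24.3) and 9.27 (6.48 to 13.3) at mt-Tp. In v102 both intervals lay above the intervals of every other mitochondrial window with at least 1000 summed input reads, whereas in v134 they overlapped those of mt-Cytb and its neighbours.

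These windows reach into the control region, the non-coding stretch behind mt-Tp that holds the promoters and an origin of replication of the molecule. The mt-Tt window shares 857 bases with that of mt-Cytb and goes on for 1144 bases (chrM:15146-16289). The mt-Cytb window had 10 and 21 ChIP reads, so at least 59 of the 69 mt-Tt reads in v102 and 11 of 32 in v134 lay past its end. In the inputs at least 273 of 3801 and 158 of 3427 did. In v102 the ChIP reads were thus more unevenly placed between these 2 windows than the input reads. Both windows were still below input by edgeR, with log2 fold changes of -3.95 (standard error 0.73, adjusted p = 1.33e-06) at mt-Tt and -3.89 (standard error 0.71, adjusted p = 1.26e-06) at mt-Tp. Without the v134 ChIP library they were no longer called by edgeR, at log2 fold changes of -3.34 (adjusted p = 0.0655) and -3.26 (adjusted p = 0.0680). The excess in v102 rests on 1 library. Nuclear copies also cover part of chrM:15146-16289, such as bases 15321 to 16025 on chromosome 10 (84.9% identity). Stretches of the read length with an exact nuclear match made up 11.7% of the mt-Tt window, 12.5% of mt-Tp and 0.986% of mt-Cytb. By the wider measure above, which allows mismatches, these were 45.7%, 42.5% and 59.4%. At mt-Th 24.8% matched exactly, with 10 ChIP reads against 4147 input reads in v102. Whether reads from nuclear copies add to the excess was not tested.

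Over windows that do not overlap, the spread of ChIP against input reads was described by chi-square per degree of freedom. In the set that holds mt-Tt (mt-Rnr1, mt-Nd1, mt-Tw, mt-Co2, mt-Nd5 and mt-Tt) it was 27.6 in v102 and 3.45 in v134. Without mt-Tt it was 0.0910 and 1.23. Across the other 5 windows of this set, the ChIP reads were placed as the input reads were, within counting error. These windows held 32 ChIP reads in v102 and 57 in v134 and end at base 12742, so the genome past it is not covered. Of the arc from mt-Nd4 to mt-Cytb, whose ratios were higher in v134, they include mt-Nd5 alone. In the 6 windows named first it was 2.13 and 4.74, values set by the 1 ChIP read of each library at mt-Nd4l. Without mt-Nd4l it was 0.132 and 0.971. Both omissions were chosen after the data were seen.

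**Figure D4:**
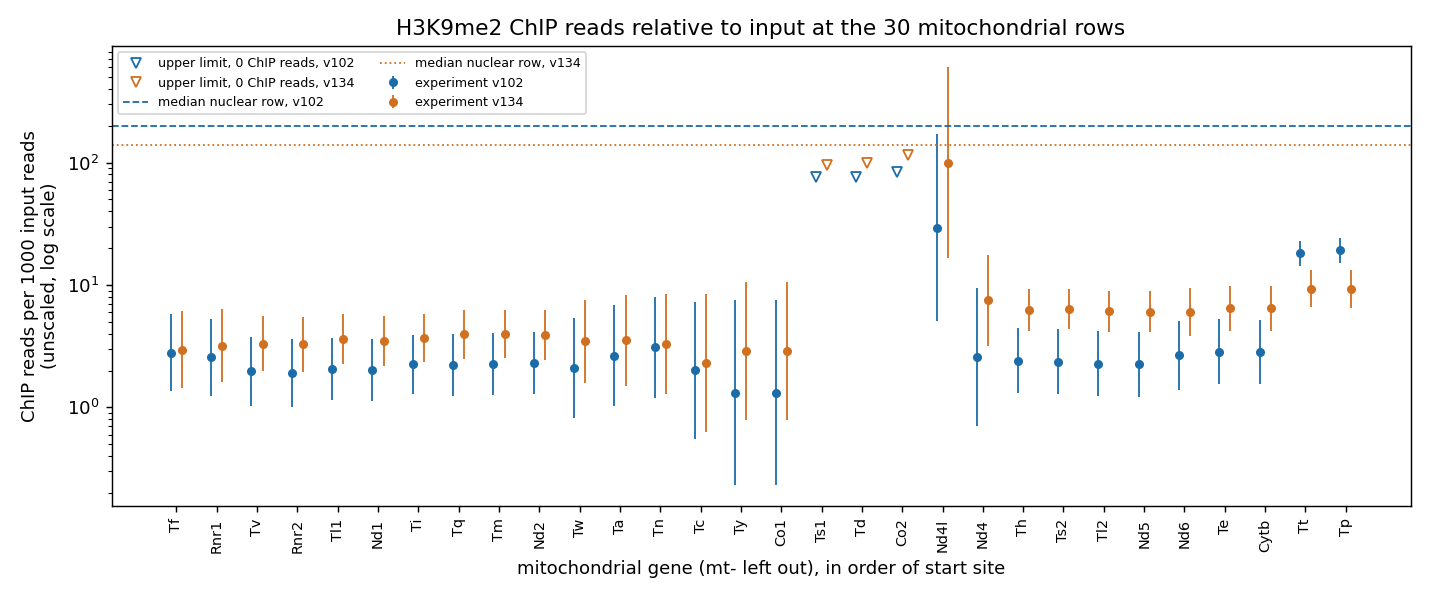
ChIP reads per 1000 input reads (log axis, not scaled for library size) at the 30 mitochondrial windows in gene order, with 95% Wilson intervals, in v102 (blue) and v134 (orange). Open triangles are upper limits at windows with 0 ChIP reads and lines mark the median nuclear window, at 200 and 140. In v102, mt-Tt and mt-Tp, at 18.2 and 19.2, stand above the others that have many input reads.

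Set against nuclear windows, the mitochondrial ratio was lower by a wide margin. The 6 windows without overlap had 2.38 ChIP reads per 1000 input reads (1.69 to 3.36) in v102 and 4.20 (3.19 to 5.52) in v134. All nuclear windows together had 305 (303 to 307) and 229 (228 to 230), which is 128 and 54.4 times the mitochondrial ratio. With the set that holds mt-Tt, the mitochondrial ratio was 5.49 (4.52 to 6.68) and 5.28 (4.29 to 6.50), so in v102 this set, with that 1 window, gave a ratio 2.31 times higher.

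The study's own reference loci, its controls in ChIP-qPCR, lay on either side of the typical nuclear window by their point values. Actb, an active gene, had 0 and 1 ChIP reads against 31 and 53 input reads, or 11.9 per 1000 (2.08 to 68.0) over both experiments, with a log2 fold change of -4.02 (edgeR adjusted p = 0.000210). Within each experiment its interval, 0 to 124 in v102 and 3.29 to 108 in v134, includes the pooled mitochondrial ratio. At this depth Actb could thus not be told apart from the mitochondrial windows. Magea2, a silent germline gene, had 3 and 7 ChIP reads against 6 and 16 input reads, or 455 per 1000 (219 to 944), with a log2 fold change of 1.12 (edgeR adjusted p = 0.170). It was thus not called above input. Its interval, 137 to 1823 in v102 and 185 to 1035 in v134, includes the pooled nuclear ratio of that experiment, 305 and 229.

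If the mitochondrial ratio is taken as the rate at which unbound DNA entered the ChIP libraries, it can be applied to the nuclear input reads. For the 6 windows it then corresponds to 0.781% (exact Poisson limits 0.534 to 1.10) of the nuclear ChIP reads in v102 and 1.84% (1.37 to 2.42) in v134. With the set that holds mt-Tt it corresponds to 1.80% and 2.31%. At the median nuclear window this rate gives 0.0476 reads in v102 and 0.155 in v134, compared with 4 and 5 reads counted. That nuclear chromatin without the mark is carried over at the rate of mitochondrial DNA was not tested.

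The depth limits how this rate can be compared with single nuclear windows. At the mitochondrial rate of the 6 windows named first, 420 input reads in v102 and 238 in v134 are needed for 1 ChIP read. With the set that holds mt-Tt, 182 and 189 are needed. The median nuclear window had 20 and 37. A nuclear window at either rate would thus mostly show 0 reads. Of the nuclear windows, 2383 (9.05%) in v102 and 2019 (7.67%) in v134 had 0 ChIP reads, and 520 (1.98%) had 0 in both. If every nuclear window were at the mitochondrial rate of the windows named first, 95.3% and 85.4% would be at 0 by the Poisson distribution. With the set that holds mt-Tt these would be 89.6% and 82.0%. By reads summed over both experiments, the lowest nuclear ratio above 0 was 9.09 per 1000 at Nts. It had 1 and 0 ChIP reads against 29 and 81 input reads. Of the mitochondrial windows, 27 were below that value by summed reads, 24 of them with at least 1 ChIP read.

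The mitochondrial windows also entered the scaling of the libraries. Because they made up 14.3% and 7.53% of input reads and 0.200% and 0.175% of ChIP reads, leaving them out of the totals lowers every nuclear log2 ratio by 0.22 in v102 and 0.11 in v134. The direction of the change at the mitochondrial windows was the same with either total.

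Nuclear genes that work with the mitochondrial genome were not depleted to a like degree. Of 92 windows listed as nuclear respiratory chain genes, 24 were below input and 6 above by edgeR, beside 17.0% and 18.6% of all windows. Their median log2 fold change was -0.73. Pooled, they had 190 (170 to 211) and 155 (142 to 169) ChIP reads per 1000 input reads, 79.6 and 36.9 times the ratio of the 6 mitochondrial windows. This list was taken by symbol, as Sdha, Sdhb, Sdhc, Sdhd, Cyc1 and every symbol starting with Nduf, Uqcr, Atp5 or Cox4 to Cox8. Taken by prefix, it may include genes that do not encode subunits, such as assembly factors. It also holds Sdh (complex II) and Atp5 (complex V) genes, of complexes without a mitochondrial window here. The pooled value is therefore not a comparison within the same complexes.

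Of 8 windows of genes that maintain or transcribe mitochondrial DNA, 4 were below input and 0 above by edgeR, beside 17.0% and 18.6% of all windows. Pooled, they had 106 (67.6 to 165) and 103 (72.5 to 146) ChIP reads per 1000 input reads. Polg, the catalytic subunit of the mitochondrial DNA polymerase, had 2 and 1 ChIP reads against 29 and 42 input reads, a log2 fold change of -2.28 (standard error 0.76, adjusted p = 0.0116). Polrmt, the mitochondrial RNA polymerase, had 1 and 2 against 37 and 40, a log2 fold change of -2.43 (standard error 0.74, adjusted p = 0.00554). Polg2 and Tfb2m were the others below input. Tfam had 5 and 9 against 26 and 61, with a log2 fold change of -0.35 (standard error 0.48, adjusted p = 0.580). Even the lowest pooled nuclear list was 44.3 and 24.5 times above the 6 mitochondrial windows.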

How the data were processed

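Per the authors, paired-end reads of 75 bases were trimmed (Trim Galore 0.4.2, cutadapt 1.9.1, per the submitters' processing notes), aligned to GRCm38 with Bowtie2 2.2.7 and counted within 1 kb of each start site with SeqMonk. The authors left out genes with under 20 input reads. The values used are the deposited raw counts of the 4 libraries. The deposited sums and the unscaled ratio of summed ChIP to input reads hold no further measurement and were not used. The annotation release, any mapping-quality filter and how duplicates were treated are not given in the sources used here.

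Members and lists were chosen with earlier results of these data known. Every mt- window is covered, in full only the 3 highest and 3 lowest by summed input and by mean log2 ratio, both rRNA genes and 1 member per respiratory complex. Any other window described in full was chosen after its values were seen. The respiratory chain list was taken by symbol, and of the upkeep list Twnk, Mterf1a and Mgme1 have no entry under these symbols.

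Windows were rebuilt from GENCODE starts on GRCm38 and cut off at the ends of the linear mitochondrial sequence. Non-overlapping sets covering the most bases were built by position. Nuclear copies were found with blastn (BLAST 2.17.0) in the RefSeq GRCm38 assembly. ChIP was compared with input by edgeR 4.0.16 (R 4.3.3, quasi-likelihood test, TMM, Benjamini-Hochberg over 26354 windows, threshold 0.05) without a block. The standard error is the size of the log2 fold change divided by the square root of F. Alternatives were DESeq2 1.42.0, library totals, totals without mt- windows, at least 20 reads in each input, the experiment as a block, each library left out, a threshold of 0.01 and other pseudocounts. Intervals for ratios are 95% Wilson intervals of the ChIP share of ChIP and input reads, converted to ratios.

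The study names an associated input for each immunoprecipitation, which makes v102 and v134 pairs of libraries. Over nuclear windows, the deviations of ChIP and input libraries of the same number had a correlation of 0.104. The counts of the 2 inputs, or of the 2 ChIP libraries, are not copies of each other. Chi-square per degree of freedom over nuclear windows was 1.28 between inputs and 1.52 between ChIP libraries. Whether the libraries came from separate material cannot be read from these values. Statistics and figures were made in Python 3.11.15 with scipy 1.17.1, pandas 2.3.3, numpy 2.4.6 and matplotlib 3.10.9.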

Additional observations from a re-analysis of the deposited data

How the results depend on the processing

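The number of mitochondrial windows below input, 30, was 26 to 30 under every alternative run, and the number above stayed 0. It was 29 with the experiment as a replicate block for the paired libraries, where mt-Nd4l was lost, 26 by DESeq2, which left the adjusted p of the other 4 undefined, and 27 to 30 when 1 library at a time was left out. There a lone library is assumed to vary like the others. Of 265 single-window values, 257 stayed past the threshold, 8 did not and 0 reversed. Of the 8, 5 were mt-Nd4l, with adjusted p from 0.0508 to 0.890. Over all windows, calls below input changed more, from 4484 to 2187 with the block, 27 by DESeq2 (which left 17883 undefined), 3995 and 2328 without the v102 and v134 ChIP libraries, and 495 and 515 without the v102 and v134 inputs. With library totals in place of TMM they were 5677, and the median log2 fold change of all windows moved from -0.35 to -0.50. The mean log2 ratio of the mitochondrial shares, -5.79, moved to -6.36 over windows that do not overlap. Without each replicate it was -5.43 or -6.16, which are the values of the experiment that remained. The median percentile, 0.0569, is the lowest that 30 windows can reach among all windows, so it could not fall further. Without each replicate it was the same, which is the value of the experiment that remained. It was 0.104 where both inputs had to reach 20 reads and 0.0695 among autosomal and mitochondrial windows, where fewer windows are ranked. By the ratio of summed reads, where the 520 nuclear windows with 0 ChIP reads rank lowest, it was 2.03. The alternatives chosen after seeing the data were the set of windows that holds mt-Tt (-5.58), leaving out mt-Tt and mt-Tp (-6.19), and leaving out mt-Nd4l (29 below input). ChIP reads at the median mitochondrial window, 9 and 15.5, limit the precision at single windows.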
